A study of Mus musculus with 10 samples.

Results

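Transcript levels of 10 genes of natural killer cells were followed in mouse bone marrow cells sorted as B cell precursors. The genes were taken by symbol from a fixed list of receptors (Ncr1, Klrb1c, Klrk1, Klrd1), cytotoxic effectors (Gzma, Gzmb, Prf1, Nkg7) and transcription factors (Eomes, Tbx21), and all 10 of them were present among the 23420 genes of the count tables. RNA sequencing covered 10 libraries from mice of the C57BL/6 strain: 3 of small pre-B cells with the genotype label Mta2_VavKO, 3 of small pre-B cells labelled Control, 2 of pro-B cells labelled Mta2_VavKO and 2 of pro-B cells labelled Control. Pro-B cells were sorted as B220+ IgM- CD43+, and small pre-B cells as B220+ IgM- CD43- with small size by light scatter. The sorting markers named are B220, IgM and CD43, and no natural killer marker is among them. The Vav promoter is active throughout blood cells, so a knockout driven by it is not limited to B cells. Age, sex, pooling of animals and any alleles carried by the controls are not stated in the sources used here. Replicates are libraries, and nothing says whether they came from separate animals, so p-values measure the spread between libraries, which may be technical.

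Natural killer cells are innate lymphocytes that kill infected or transformed cells without a rearranged antigen receptor. Activating and inhibitory receptors on their surface set whether they release granules in which perforin opens membranes and granzymes start cell death. The T-box factors T-bet and Eomes are needed for their development and maturation, and in the bone marrow they arise from lymphoid progenitors that are close to those of B cells. The protein made from Mta2 belongs to NuRD, a chromatin complex that shifts nucleosomes and takes acetyl groups off histones.

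Total counts were 17805507 to 25821264 in small pre-B Mta2 KO libraries, 18502193 to 38392136 in small pre-B controls, 48988304 to 52011415 in pro-B Mta2 KO libraries and 48860391 to 52127004 in pro-B controls. Levels are CPM, the counts of a gene in each 1000000 counts of its library after scaling by the trimmed mean of M values (TMM). A level of 3 counts was 0.119 to 0.173 CPM in small pre-B Mta2 KO, 0.0852 to 0.167 CPM in small pre-B controls and at most 0.0595 CPM in pro-B libraries, and these floors cover counting error only. Mta2 measured 199, 179 and 198 CPM in small pre-B Mta2 KO and 438, 246 and 412 CPM in small pre-B controls, and 163 and 166 CPM in pro-B Mta2 KO and 436 and 375 CPM in pro-B controls. Counts cover all exons of Mta2, and the deleted exons are not given in the sources used here. The 12 B lineage markers, Pax5 and Rag1 among them, were above 0 counts in every library. Small pre-B control 3 stood apart from the other libraries for the genes described here, and the main counts that it enters are also given without it. In its file header it has the number that the titles give to small pre-B control 2 and Mta2 KO 2, not the number of its own title, so its identity rests on the title; its counts are not those of control 2, with a depth of 38392136 against 25291536. Xist, which silences an X chromosome in female cells, measured 2518 and 2942 CPM in small pre-B Mta2 KO 1 and 2 and 7.93 CPM in Mta2 KO 3, against 1.69 to 31.4 CPM in small pre-B controls. It was at 0.455 and 0.635 CPM in pro-B Mta2 KO and 0.497 and 0.306 CPM in pro-B controls. High Xist was thus seen in 2 libraries, both small pre-B Mta2 KO, and sex and genotype cannot be told apart there except through Mta2 KO 3. Fits over the 8 libraries with low Xist, chosen after the values were seen, leave Mta2 KO 3 as the single small pre-B KO library.

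The genes lie on 7 chromosomes (positions in mm10, from the exons in the count tables). Klrb1c (chromosome 6, 128778485 to 128788641), Klrd1 (129591811 to 129598775) and Klrk1 (129610321 to 129623841) sit in the cluster of natural killer receptor genes on chromosome 6. Ncr1 (4337724 to 4345164) and Nkg7 (43437138 to 43438246) are on chromosome 7. Gzma is on chromosome 13 (113093827 to 113100981), Gzmb on chromosome 14 (56258858 to 56262260) and Prf1 on chromosome 10 (61297836 to 61304263). Eomes is on chromosome 9 (118478189 to 118486132) and Tbx21 on chromosome 11 (97098007 to 97115331). No exon of another gene in the tables overlapped an exon of these 10, so counting without strand could not mix them with a neighbour.

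Promoter sequences (RefSeq, GRCm38.p6) were matched for 9 of the 10 genes, all but Klrd1. The 250 bases before the start are shown for Ncr1 and Gzmb, whose levels relative to the other genes of the list moved apart in Mta2 KO, for Klrb1c, whose relative level did not, and for Nkg7, which held the only T-box match. Capitals mark GGTGTGA, a core of T-box sites, and TGTGGT, the core bound by RUNX factors, on either strand; the letters of these motifs can overlap, but no match shown does. Starts follow RefSeq and can differ from the exons counted.
Ncr1 (chr7:4337474-4337723, plus strand): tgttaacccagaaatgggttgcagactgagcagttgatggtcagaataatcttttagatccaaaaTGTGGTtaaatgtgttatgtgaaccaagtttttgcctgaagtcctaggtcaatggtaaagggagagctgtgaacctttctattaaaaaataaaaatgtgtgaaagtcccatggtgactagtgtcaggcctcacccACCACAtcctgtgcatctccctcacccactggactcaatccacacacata
Gzmb (chr14:56262335-56262584, minus strand): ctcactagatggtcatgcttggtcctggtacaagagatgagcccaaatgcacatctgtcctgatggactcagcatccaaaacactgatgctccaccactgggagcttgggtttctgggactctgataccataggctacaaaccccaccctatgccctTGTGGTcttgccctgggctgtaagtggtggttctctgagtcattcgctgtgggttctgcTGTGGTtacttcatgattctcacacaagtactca
Klrb1c (chr6:128788642-128788891, minus strand): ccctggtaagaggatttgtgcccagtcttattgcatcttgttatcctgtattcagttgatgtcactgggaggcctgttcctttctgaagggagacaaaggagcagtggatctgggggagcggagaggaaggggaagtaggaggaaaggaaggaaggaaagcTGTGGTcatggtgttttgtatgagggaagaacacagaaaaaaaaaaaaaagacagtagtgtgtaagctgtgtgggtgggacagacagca
Nkg7 (chr7:43436888-43437137, plus strand): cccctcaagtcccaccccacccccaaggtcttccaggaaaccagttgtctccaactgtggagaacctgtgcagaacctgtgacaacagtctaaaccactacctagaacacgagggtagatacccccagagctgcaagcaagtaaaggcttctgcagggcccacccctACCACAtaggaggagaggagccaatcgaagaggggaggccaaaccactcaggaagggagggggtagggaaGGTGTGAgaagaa
TGTGGT was present in 7 of the 9 promoters, against 14.0% of the 32851 mouse promoters of the same length. Ncr1 and Gzmb held 2 matches each. GGTGTGA was present in 1 of the 9, against 3.33% of all promoters. Eomes and Tbx21, the 2 factor genes, held neither. A match describes letters only. Runx3, the RUNX factor known for its role in natural killer cells, measured 29.4, 42.3 and 25.9 CPM in small pre-B Mta2 KO and 18.3, 28.8 and 6.42 CPM in small pre-B controls, and 134 and 119 CPM in pro-B Mta2 KO and 100.2 and 118 CPM in pro-B controls.

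**Figure D1:**
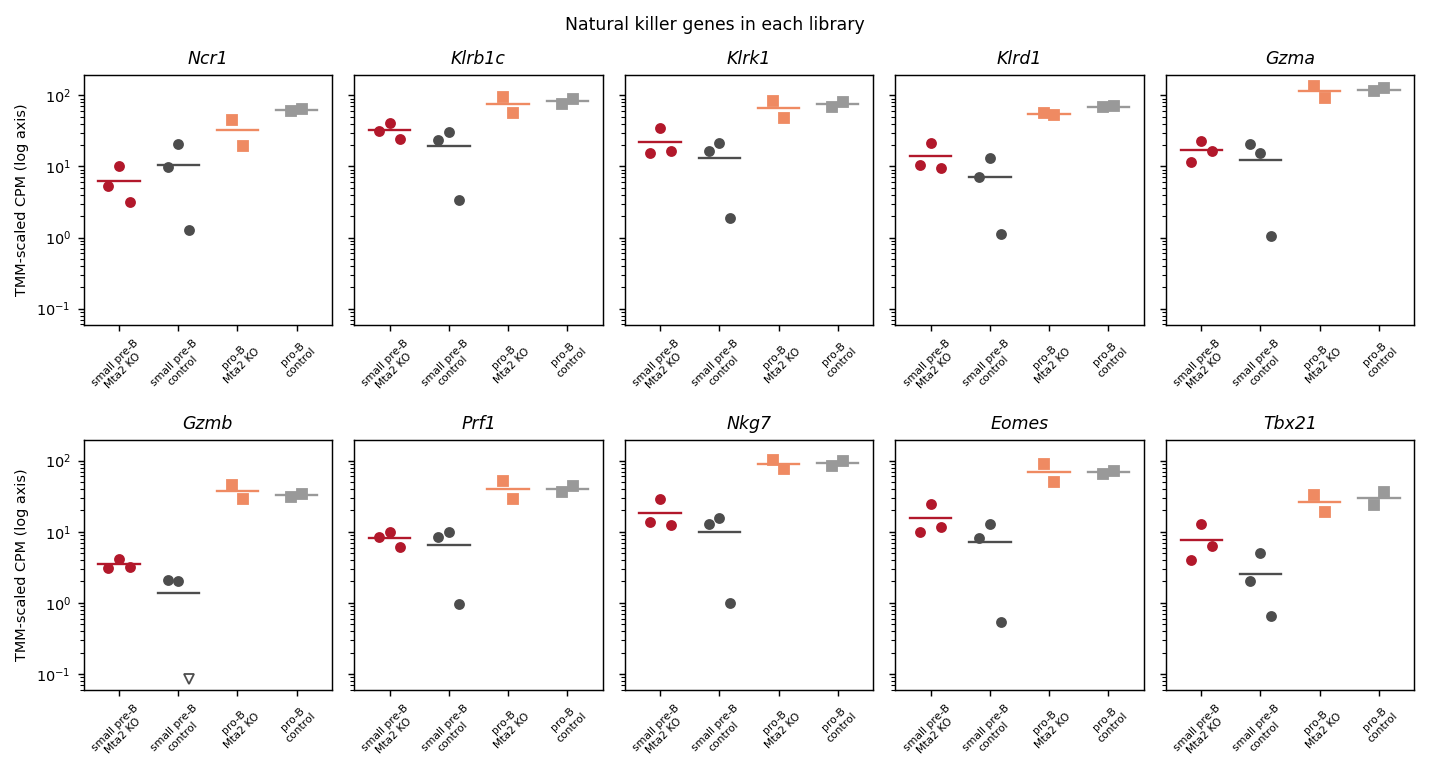
Level of each of the 10 natural killer genes in every library, as TMM-scaled CPM on a log axis, with a line at the group mean. Within each genotype every small pre-B library lies below every pro-B library for each gene, small pre-B control 3 is the lowest of the 10 libraries for each gene, and the open triangle marks the level of 3 counts where Gzmb had 0 counts.

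Among the receptors, Klrb1c encodes NK1.1, the surface antigen used to identify natural killer cells in C57BL/6 mice. Klrb1c measured 31.7, 40.4 and 24.1 CPM in small pre-B Mta2 KO libraries 1 to 3, against 23.7, 30.8 and 3.35 CPM in small pre-B controls 1 to 3. Its pro-B levels were 95.998 and 56.2 CPM in KO libraries 1 and 2, against 75.3 and 89.6 CPM in controls 1 and 2. The genotypes overlapped in both cell types, and control 3 was far below the other small pre-B controls. Klrk1 encodes NKG2D, an activating receptor for stress-induced ligands. It measured 15.3, 35.1 and 16.5 CPM in small pre-B Mta2 KO against 16.6, 21.3 and 1.88 CPM in controls; in pro-B cells the values were 83.9 and 47.4 CPM in Mta2 KO against 69.3 and 80.2 CPM in controls. Klrd1 encodes CD94, which pairs with NKG2 chains to read the non-classical class I molecule Qa-1. Its levels were 10.6, 21.4 and 9.65 CPM in small pre-B Mta2 KO and 7.08, 12.9 and 1.11 CPM in small pre-B controls. In pro-B cells the KO libraries, at 56.8 and 53.7 CPM, were both below the controls, at 67.7 and 71.5 CPM. Ncr1 encodes NKp46, an activating receptor that is largely restricted to natural killer cells and related innate lymphoid cells. It measured 5.31, 10.04 and 3.17 CPM in small pre-B Mta2 KO against 9.70, 20.5 and 1.28 CPM in small pre-B controls. Its pro-B values, 45.3 and 19.5 CPM in KO and 60.99 and 64.9 CPM in controls, did not overlap, with both KO libraries lower.

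Of the effectors, Gzma encodes granzyme A, a serine protease of the cytotoxic granule. Gzma measured 11.4, 23.04 and 16.7 CPM in small pre-B Mta2 KO and 20.6, 15.6 and 1.05 CPM in small pre-B controls, and 136 and 91.6 CPM in pro-B Mta2 KO and 113 and 128 CPM in pro-B controls. The genotypes overlapped in both cell types. Gzmb encodes granzyme B, the caspase-activating protease of the same granules, which plasmacytoid dendritic cells can also make. It measured 3.12, 4.19 and 3.22 CPM in small pre-B Mta2 KO against 2.12, 2.05 and 0 CPM in small pre-B controls, with 0 counts in control 3, which allows up to 0.0852 CPM. All 3 KO libraries were above all 3 controls, whereas in pro-B cells the KO values of 45.8 and 28.9 CPM spanned the control values of 31.3 and 33.99 CPM. Prf1 encodes perforin, the pore-forming protein. Prf1 levels were 8.36, 9.88 and 6.15 CPM in small pre-B Mta2 KO and 8.42, 10.03 and 0.966 CPM in small pre-B controls, and 51.3 and 29.3 CPM in pro-B Mta2 KO and 36.8 and 43.8 CPM in pro-B controls. Nkg7 encodes a membrane protein of cytotoxic granules that takes part in their release. For Nkg7 the values were 13.9, 29.2 and 12.5 CPM in small pre-B Mta2 KO and 12.8, 15.8 and 0.994 CPM in small pre-B controls, and 100.4 and 77.2 CPM in pro-B Mta2 KO and 83.03 and 99.5 CPM in pro-B controls. Prf1 and Nkg7 overlapped between genotypes in both cell types.

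Of the 2 T-box factors, Eomes measured 9.92, 24.5 and 11.7 CPM in small pre-B Mta2 KO and 8.25, 12.8 and 0.540 CPM in small pre-B controls. In pro-B cells its values were 88.6 and 50.6 CPM in KO and 64.3 and 72.1 CPM in controls. Tbx21, which encodes T-bet, was the lowest of the 10 genes in pro-B controls per length. It measured 4.04, 12.7 and 6.29 CPM in small pre-B Mta2 KO against 2.01, 4.95 and 0.653 CPM in small pre-B controls, and 32.6 and 18.9 CPM in pro-B Mta2 KO against 23.8 and 36.4 CPM in pro-B controls. Both factors overlapped between genotypes in both cell types. Within groups the libraries ranked alike: small pre-B Mta2 KO 2 was the highest KO library of its cell type for 10 of 10 genes, small pre-B control 3 the lowest control for 10 of 10, and pro-B Mta2 KO 2 was below pro-B Mta2 KO 1 for 10 of 10. The ranks were not set against those of all tested genes, so they are not shown to be particular to these 10. The summed level of the 10 genes was 114, 210.5 and 110.1 CPM in small pre-B Mta2 KO, 111, 147 and 11.8 CPM in small pre-B controls, 736 and 473 CPM in pro-B Mta2 KO and 626 and 719.5 CPM in pro-B controls. In sorted bulk cells a change in the number of cells that carry these transcripts and a change in transcript per cell cannot be told apart.

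Scaled by exon length (CPM per kilobase, SD over libraries), the effectors Gzma and Nkg7 and the receptor Klrd1 were the 3 most abundant in each of the 4 groups. In pro-B controls (n = 2) Gzma was at 137 ± 11.5, Nkg7 at 112 ± 14.3, Klrd1 at 80.4 ± 3.16, Ncr1 at 43.01 ± 1.87 and Klrb1c at 31.3 ± 3.84, and the ranges of these neighbours did not overlap. Gzmb, Klrk1, Prf1 and Eomes followed at 23.05 ± 1.35, 22.7 ± 2.33, 19.6 ± 2.43 and 18.4 ± 1.496, each overlapping the next, and Tbx21 was last at 11.8 ± 3.48. In small pre-B Mta2 KO and small pre-B controls every neighbour in the order overlapped the next, and Gzmb was last, at 2.48 ± 0.418 in KO and 0.982 ± 0.851 in controls (n = 3 each). Ncr1 ranked 6 in small pre-B Mta2 KO, 5 in small pre-B controls, 6 in pro-B Mta2 KO and 4 in pro-B controls.

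Small pre-B cells follow pro-B cells in B cell development, and the comparison of the cell types asks in which sorted population these transcripts were found. All 10 genes fell in small pre-B controls relative to pro-B controls, by edgeR's quasi-likelihood test with Benjamini-Hochberg adjustment over 14161 genes and a threshold of 0.05. The median of the 10 log2 fold changes was -3.25, beside -0.02 over all tested genes, and 29.4% of all tested genes passed in this direction. Gzmb averaged 1.39 ± 1.205 CPM in small pre-B controls and 32.6 ± 1.92 CPM in pro-B controls (SD, n = 3 and n = 2), a log2 fold change of -4.63 (SE 0.90, adjusted p = 0.00219). Tbx21 was at -3.58 (SE 0.72, adjusted p = 0.00269) and Klrd1 at -3.32 (SE 0.72, adjusted p = 0.00407). Klrb1c changed least, with 19.3 ± 14.3 CPM in small pre-B controls and 82.4 ± 10.1 CPM in pro-B controls, a log2 fold change of -2.10 (SE 0.66, adjusted p = 0.0235). For all 10 genes every small pre-B control was below every pro-B control, as was the case for 38.9% of all tested genes. For the fits that follow, the share of all tested genes that passed is not given. Without small pre-B control 3 the median was -2.68 and the 10 genes still passed. When pro-B control 2 was left out 6 of them passed, and over the 8 libraries with low Xist 9 passed. Libraries of the 2 cell types may also have been handled apart, so cell type and handling cannot be told apart.

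In Mta2 KO 6 of the 10 genes fell in small pre-B relative to pro-B cells: all 4 effectors and the receptors Klrd1 and Ncr1. In that direction 27.3% of all tested genes passed. Gzmb averaged 3.51 ± 0.592 CPM in small pre-B Mta2 KO and 37.3 ± 11.9 CPM in pro-B Mta2 KO (SD, n = 3 and n = 2), a log2 fold change of -3.41 (SE 0.83, adjusted p = 0.00804, edgeR quasi-likelihood). Gzma was at -2.73 (adjusted p = 0.0213), Prf1 at -2.31 (adjusted p = 0.0192), Nkg7 at -2.25 (adjusted p = 0.0382), Klrd1 at -1.99 (adjusted p = 0.0381) and Ncr1 at -2.38 (adjusted p = 0.0422). Tbx21 (-1.74, adjusted p = 0.0565), Eomes (-2.17, adjusted p = 0.0574), Klrk1 (-1.55, adjusted p = 0.106) and Klrb1c (-1.25, adjusted p = 0.141) did not pass, although for all 10 genes every small pre-B Mta2 KO library was below every pro-B Mta2 KO library, as for 39.4% of all tested genes. The median of the 10 was -2.21. For the fits that follow, the share of all tested genes that passed is not given. Without that share, the counts do not show whether these 10 changed apart from all genes. The number that passed was 0 without pro-B Mta2 KO 1, 2 without pro-B Mta2 KO 2, 1 when small pre-B Mta2 KO 1 or KO 3 was left out, 3 with either pro-B control left out and 10 with small pre-B control 3 left out, which entered only through the shared estimate of the spread. In a fit of the compared groups alone 10 passed, with no count filter 2 and over the 8 libraries with low Xist 0, where the median was -2.64.

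**Figure D2:**
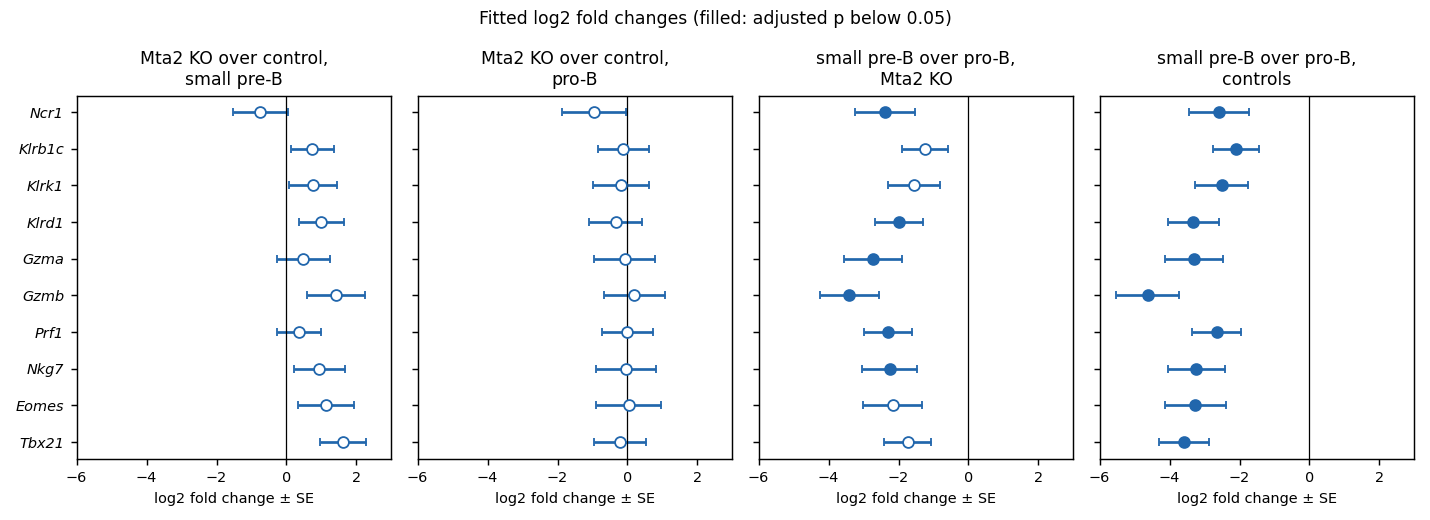
Fitted log2 fold change of each gene with its SE in 4 comparisons, filled where the adjusted p was below 0.05 (edgeR quasi-likelihood). Points for Mta2 KO over control lie on both sides of 0 and none is filled, while all points for small pre-B over pro-B lie below 0, with 6 filled in Mta2 KO and 10 filled in controls.

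In small pre-B cells 0 of the 10 genes passed for Mta2 KO against control, where 3.02% of all tested genes passed. At an unadjusted p below 0.05 there was 1, Tbx21, beside 24.7% of all tested genes, and DESeq2 and limma-voom each called 0. The point estimates were positive for 9 genes and negative for Ncr1, with a median of 0.85 beside 0.01 over all tested genes. Tbx21 averaged 7.69 ± 4.51 CPM in small pre-B Mta2 KO and 2.54 ± 2.20 CPM in small pre-B controls (SD, n = 3 each), a log2 fold change of 1.62 (SE 0.66, adjusted p = 0.172, edgeR quasi-likelihood). Gzmb was at 1.42 (SE 0.83, adjusted p = 0.315) and Eomes at 1.12 (SE 0.80, adjusted p = 0.404). Gzmb was the single gene whose KO libraries all lay above the controls, which held for 13.3% of all tested genes. Klrd1 (1.0), Nkg7 (0.94), Klrk1 (0.77), Klrb1c (0.74), Gzma (0.48) and Prf1 (0.35) had SE of 0.61 to 0.75, and Ncr1 was at -0.75 (SE 0.79). Without small pre-B control 3 the median was 0.31, with 7 positive and 3 negative estimates, and no gene passed. Over the 8 libraries with low Xist the median was 0.41, with 8 positive and 2 negative, and none passed. Without small pre-B control 2 Tbx21 passed, at a log2 fold change of 2.63 (adjusted p = 0.0382).

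In pro-B cells 0 of the 10 genes passed for Mta2 KO against control, where 0.0353% of all tested genes passed. None had an unadjusted p below 0.05 with edgeR, beside 6.45% of all tested genes, and DESeq2 and limma-voom also called 0. The median was -0.10, beside -0.01 over all tested genes. Ncr1 was the largest estimate, with 32.4 ± 18.2 CPM in pro-B Mta2 KO and 62.9 ± 2.74 CPM in pro-B controls (SD, n = 2 each), at -0.96 (SE 0.92, adjusted p = 1, edgeR quasi-likelihood). Klrd1 was at -0.33 (SE 0.76). These were the 2 genes with both KO libraries below both controls, which held for 28.1% of all tested genes. The other 8 lay between -0.22 for Tbx21 and 0.19 for Gzmb, with SE of 0.72 to 0.92. The estimates followed the 2 KO libraries: without pro-B Mta2 KO 1 the 10 were negative, with a median of -0.44, and without pro-B Mta2 KO 2 there were 8 positive and 2 negative, with a median of 0.17.

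The difference of the KO effects, small pre-B minus pro-B, passed for 0 of the 10 genes and for 0% of all tested genes. None of the 10 had an unadjusted p below 0.05, beside 6.40% of all tested genes, and DESeq2 and limma-voom called 0 of the 10. All 10 estimates were positive, with a median of 0.97; without small pre-B control 3 it was 0.42, with 8 positive. Tbx21 was at 1.84 (SE 0.99, adjusted p = 0.774, edgeR quasi-likelihood), Klrd1 at 1.33 (SE 1.0) and Ncr1 at 0.21 (SE 1.21). The same test compares the stage difference in Mta2 KO with that in controls, so a count of 6 in the first and 10 in the second does not show that they differ.

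**Figure D3:**
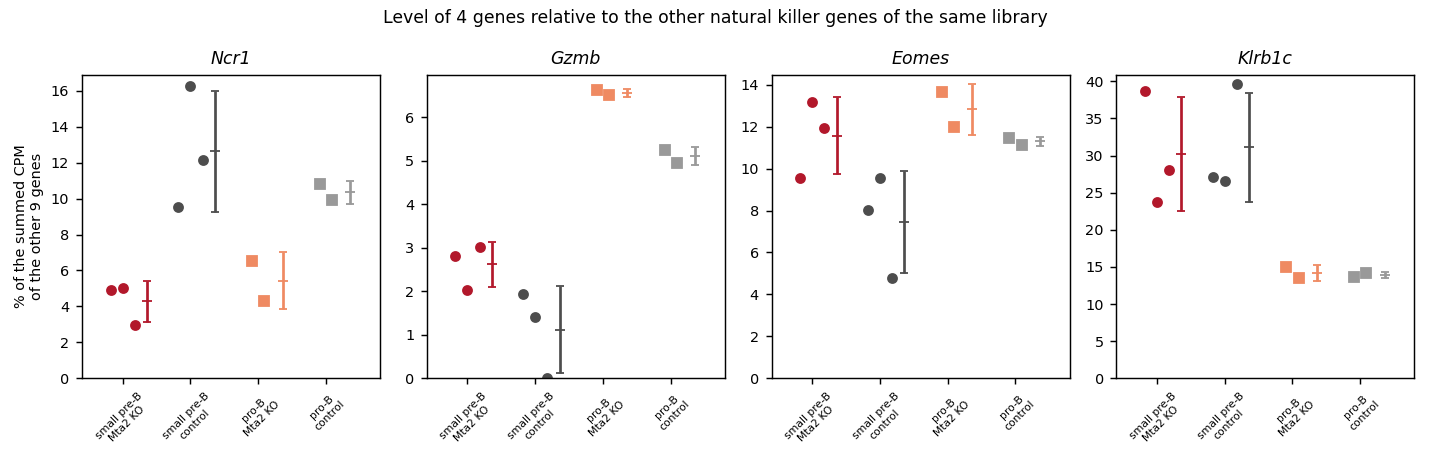
Level of Ncr1, Gzmb, Eomes and Klrb1c as a percentage of the summed CPM of the other 9 natural killer genes in the same library, with the group mean and SD beside the points. Ncr1 is lower in every Mta2 KO library than in every control of its cell type, at 2.97 to 6.55% against 9.55 to 16.2%, while Klrb1c overlaps between genotypes.

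Since the genes moved together from library to library, each was also set against the summed CPM of the other 9 in the same library. This measure was chosen after the values were seen and is given as a description. Ncr1 was at 4.90, 5.01 and 2.97% of the other 9 in small pre-B Mta2 KO libraries 1 to 3, against 9.55, 16.2 and 12.1% in small pre-B controls 1 to 3. Its pro-B shares were 6.55 and 4.30% in Mta2 KO and 10.8 and 9.91% in controls. Relative Ncr1 was thus lower in each of the 5 KO libraries than in each control of its cell type, with a ratio of group means of 0.339 in small pre-B and 0.524 in pro-B cells. The lowest share was that of small pre-B Mta2 KO 3, the KO library of that cell type with low Xist. That is 1 library, and a part played by sex was not tested. Gzmb went the other way, at 2.82, 2.03 and 3.01% in small pre-B Mta2 KO and 1.94, 1.42 and 0% in small pre-B controls, and at 6.63 and 6.51% in pro-B Mta2 KO and 5.26 and 4.96% in pro-B controls. Eomes was also higher without overlap in both cell types, by ratios of 1.55 in small pre-B and 1.14 in pro-B cells. Its small pre-B groups nearly touched, at 9.56, 13.2 and 11.9% in Mta2 KO and 8.01, 9.53 and 4.79% in controls. The lowest of these was small pre-B control 3. Its pro-B shares were 13.7 and 11.97% in Mta2 KO and 11.4 and 11.1% in controls. Klrb1c, Klrk1, Klrd1, Nkg7 and Tbx21 overlapped between genotypes in both cell types, and Gzma and Prf1 in small pre-B cells. In pro-B cells Gzma and Prf1 were higher in Mta2 KO without overlap, by ratios of 1.07 and 1.11. The other tested genes were set against the sum of all 10. Their relative level was lower without overlap for 5.17% and higher for 1.11% in small pre-B cells, and lower for 3.99% and higher for 20.0% in pro-B cells. It was lower in both cell types for 0.855% and higher in both for 0.813%. These shares depend on small pre-B control 3, where the sum was 11.8 CPM. Without that library 5.31% were lower and 6.13% higher in small pre-B cells, and 0.890% and 4.20% in both cell types.

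In an added fit over all genes with the log2 summed CPM of the other 9 as a covariate, also chosen after the values were seen, Ncr1 fell in small pre-B Mta2 KO, with a log2 fold change of -1.68 (SE 0.29, adjusted p = 0.0494, edgeR quasi-likelihood). In that fit 0.254% of all tested genes passed in the lower direction. In pro-B Mta2 KO it was at -0.93 (SE 0.29, adjusted p = 0.281), where 0.0282% passed in the lower direction. Leaving out 1 library at a time gave -2.01 to -1.28 in small pre-B cells, with adjusted p of 0.0431 to 0.124, and Ncr1 passed in 1 of these 10 fits, the one that left out small pre-B control 3. In pro-B cells the estimates were -1.24 to -0.68. None of the other 9 genes passed in its own covariate fit.

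With group means removed, every gene of the list varied with the mean of the other 9 over the 10 libraries, with Pearson's r of 0.876 for Tbx21 to 0.997 for Eomes on the log2 scale. Such values share library and depth. Without small pre-B control 3 r was 0.611 for Gzma and 0.825 to 0.985 for the other 9 (9 libraries). The 5 tested genes outside the list most like its mean were Ccl5, a chemokine of cytotoxic lymphocytes (r = 0.999), the kinase gene Dapk2 (0.997), the adaptor gene Dok2 (0.997), the receptor gene Klre1 (0.995) and Mnt, a partner of MAX (0.994). They were, without small pre-B control 3, at 0.963 to 0.988. Ccl5 measured 31.04, 61.5 and 26.9 CPM in small pre-B Mta2 KO and 16.4, 25.3 and 0.852 CPM in small pre-B controls, and 135 and 79.6 CPM in pro-B Mta2 KO and 115 and 123 CPM in pro-B controls. Mnt did not share the difference between cell types, at 65.7, 74.6 and 66.02 CPM in small pre-B Mta2 KO and 74.5, 77.02 and 37.7 CPM in small pre-B controls, and at 64.6 and 56.996 CPM in pro-B Mta2 KO and 63.05 and 66.8 CPM in pro-B controls. With few libraries such a ranking is a description of these samples.

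A wider list of 61 receptors, adaptors, effectors, factors and cytokine receptors of natural killer cells had 58 members with enough counts. In small pre-B controls 46 of the 58 fell and 6 rose relative to pro-B controls, with a median of -2.67, where 29.4% of all tested genes fell and 26.0% rose. In Mta2 KO 30 fell and 6 rose, where 27.3% fell and 24.0% rose, with a median of -1.80. Leaving out small pre-B control 3 gave 46 that fell and 5 that rose in the controls, and 43 that fell and 6 that rose in Mta2 KO. The share of all tested genes that passed in that fit is not given. Control 3 entered the Mta2 KO comparison only through the shared estimate of the spread. The counts of that fit do not show whether these 58 changed apart from all genes. By role, 19 of 21 receptors, 5 of 5 adaptors, 7 of 8 cytokine receptors, 11 of 17 effectors and 4 of 7 factors fell in the controls. The signalling adaptor gene Tyrobp (DAP12) measured 29.1, 30.3 and 16.9 CPM in small pre-B controls and 699 and 765 CPM in pro-B controls (log2 fold change -4.85, adjusted p = 3.41e-06), and it is also expressed by myeloid cells. Members that rose in controls, Ets1, Slamf7, Zeb2, Il15ra, Srgn and Klra1, include genes that B cells express too. Slamf7 measured 434, 447 and 539 CPM in small pre-B controls and 192 and 136 CPM in pro-B controls (log2 fold change 1.53, adjusted p = 0.000196).

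For Mta2 KO against control, 1 of the 58 rose and 1 fell in small pre-B cells (median 0.73), where 1.89% of all tested genes rose and 1.14% fell, and 0 passed in pro-B cells (median -0.05), where 5 had an unadjusted p below 0.05 with edgeR, beside 6.45% of all tested genes. In small pre-B cells 15 of the 58 had one, beside 24.7% of all tested genes. Cd160, a receptor for the ligand HVEM, rose, at 5.54, 12.4 and 4.76 CPM in small pre-B Mta2 KO and 2.56, 2.70 and 2.50 CPM in small pre-B controls (log2 fold change 1.55, adjusted p = 0.0461, edgeR quasi-likelihood). Klra1, which encodes the receptor Ly49A, fell, at 4.44, 5.85 and 3.50 CPM in small pre-B Mta2 KO and 19.6, 8.90 and 19.4 CPM in small pre-B controls (log2 fold change -1.79, adjusted p = 0.0350). Neither passed without small pre-B control 3 (Cd160 1.53, adjusted p = 0.0827; Klra1 -1.62, adjusted p = 0.0557), where the median of the 58 was 0.25, nor over the 8 libraries with low Xist (Cd160 0.88, adjusted p = 0.184; Klra1 -2.18, adjusted p = 0.188). Klra genes are close copies of each other, so reads may be split or lost among them. In pro-B cells the smallest p were those of Nfil3, a factor needed for natural killer development (1.0, adjusted p = 0.372), Slamf7 (-0.56, adjusted p = 0.595), Gzmk (1.79, adjusted p = 0.641) and Gzmm (-0.81, adjusted p = 0.700). The difference of the KO effects passed for 0 of the 58 with edgeR, and 7 had an unadjusted p below 0.05, beside 6.40% of all tested genes.

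Relative to the summed CPM of the 10 genes, 6 of these 58 were lower and 9 higher without overlap in Mta2 KO in small pre-B cells (5.17% and 1.11% of all other tested genes), and 10 lower and 19 higher in pro-B cells (3.99% and 20.0%). In both cell types 4 were lower, beside 0.855% of all other tested genes: Klra9 and Klri2, 2 receptors, Sh2d1b1, an adaptor of SLAM receptors, and S1pr5, a receptor for sphingosine 1-phosphate by which mature natural killer cells leave the bone marrow. S1pr5 was at 0.101, 0.244 and 0.466% of the sum in small pre-B Mta2 KO and 1.35, 0.851 and 2.88% in small pre-B controls, and at 0.521 and 0.423% in pro-B Mta2 KO and 0.547 and 0.988% in pro-B controls. Another 4 were higher in both, beside 0.813%: Klrc1, which encodes the CD94 partner NKG2A, Sh2d1a, which encodes the adaptor SAP, Gzmk and Il2rb, the shared beta chain of the interleukin-2 and interleukin-15 receptors. Klrc1 was at 3.35, 3.42 and 2.29% in small pre-B Mta2 KO and 1.45, 2.03 and 1.202% in small pre-B controls, and at 2.28 and 2.57% in pro-B Mta2 KO and 1.66 and 1.77% in pro-B controls. These shares depend on small pre-B control 3, where the 10 genes summed to 11.8 CPM. When it was left out, 7 were lower and 18 higher in small pre-B cells (5.31% and 6.13% of all other tested genes). In both cell types there were then 5 lower and 10 higher, beside 0.890% and 4.20%. Levels of S1pr5 were low in small pre-B cells, at 0.115, 0.514 and 0.513 CPM in Mta2 KO and 1.51, 1.25 and 0.341 CPM in controls, and the value of Mta2 KO 1 was below that of 3 counts. Gzmk had 2, 2 and 0 counts in small pre-B controls 1 to 3, and Sh2d1a had 1 count in control 3. These values too were below 3 counts.

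**Figure D4:**
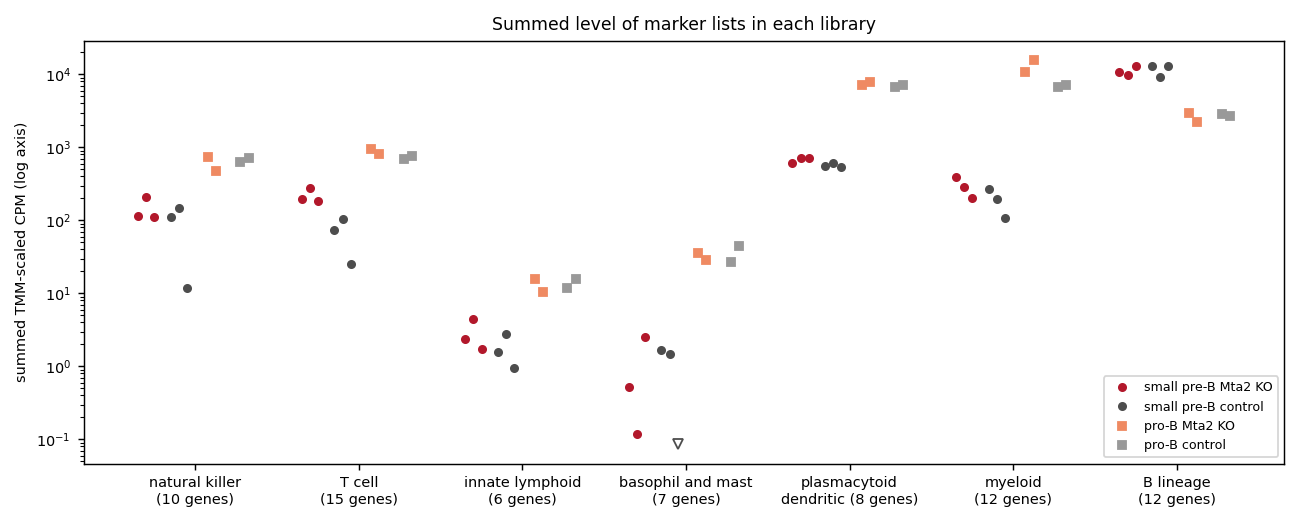
Summed CPM of 7 marker lists in each library on a log axis; an open triangle marks 3 counts where a sum was 0. The natural killer, T cell, innate lymphoid, basophil and mast cell, plasmacytoid dendritic and myeloid sums are each lower in every small pre-B library than in every pro-B library, and the B lineage sum is higher.

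Markers of other cell types moved with the same groups, and their part in these results was not tested. The 15 T cell markers summed to 199, 281 and 181 CPM in small pre-B Mta2 KO and 74.8, 104 and 25.3 CPM in small pre-B controls, without overlap, and to 951 and 809 CPM in pro-B Mta2 KO and 690.02 and 761 CPM in pro-B controls. Of these 15 markers, 6 rose in small pre-B Mta2 KO (Cd3e, Cd3d, Cd3g, Cd247, Bcl11b and Lat; median log2 fold change of the 15 was 1.98), beside 1.89% of all tested genes with a median of 0.01, and 0 passed in pro-B Mta2 KO with edgeR, none of them at an unadjusted p below 0.05. At most 1 of the 15, Cd8b1, was at 0 counts in a library. Natural killer cells also express Cd247. Cd4 alone made a large part of the pro-B sums, at 313 and 289 CPM in pro-B Mta2 KO and 231 and 299 CPM in pro-B controls. Which cells carried it was not tested. The number of the 15 that rose was 7 when small pre-B control 3 was left out, where the share of all tested genes is not given. The 8 libraries with low Xist leave 1 small pre-B KO library, so no count is given for them. Cd3e, which encodes CD3 epsilon, measured 8.13, 16.6 and 5.41 CPM in small pre-B Mta2 KO against 0.446, 0.282 and 0.0284 CPM in small pre-B controls; Cd8b1 measured 0.0577, 0.948 and 0.233 CPM in small pre-B Mta2 KO against 0, 0.282 and 0.0568 CPM in small pre-B controls. The 12 myeloid markers summed to 204 to 388 CPM in small pre-B Mta2 KO and 106 to 269 CPM in small pre-B controls, and to 10951 to 15763 CPM in pro-B Mta2 KO and 6819 to 7099 CPM in pro-B controls, with at most 1 of the 12 at 0 counts. Of these, Ly6c2 rose in small pre-B Mta2 KO. The 8 plasmacytoid dendritic cell markers summed to 618 to 718 CPM in small pre-B Mta2 KO, 538 to 602 CPM in small pre-B controls, 7126 to 7887 CPM in pro-B Mta2 KO and 6717 to 7191 CPM in pro-B controls. In small pre-B libraries Irf8 was at 205 to 273 CPM and Tcf4 at 282 to 413 CPM, while Siglech was at 0.839 to 13.7 CPM. For pro-B Mta2 KO against control 5 of the 8 estimates were positive and 3 negative, and none passed. Klk1 measured 7.97 and 6.05 CPM in pro-B Mta2 KO and 101 and 70.01 CPM in pro-B controls. Cd209d measured 5.49 and 4.62 CPM in pro-B Mta2 KO and 51.7 and 55.96 CPM in pro-B controls. The 12 B lineage markers summed to 9947 to 13221 CPM in small pre-B Mta2 KO, 9283 to 13214 CPM in small pre-B controls, 2199.8 to 2948 CPM in pro-B Mta2 KO and 2694 to 2897 CPM in pro-B controls. Basophil and mast cell markers reached 0.119 to 2.56 CPM in small pre-B Mta2 KO and 0 to 1.67 CPM in small pre-B controls, with 2 to 5 of 7 at 0 counts in the KO libraries and 2 to 7 in the controls, and 29.1 to 36.01 CPM in pro-B Mta2 KO and 27.3 to 44.2 CPM in pro-B controls. The 6 innate lymphoid markers summed to 1.72 to 4.50 CPM in small pre-B Mta2 KO, 0.938 to 2.82 CPM in small pre-B controls, 10.6 to 15.7 CPM in pro-B Mta2 KO and 11.8 to 15.96 CPM in pro-B controls.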

How the data were processed

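The authors deposited raw counts of reads for each gene symbol, in a file per library, with the summed exon length of each gene. Per the file headers the counter was featureCounts 1.4.3-p1 with exons of an mm10 annotation; no option for strand was set, though the labels name a stranded kit. CASAVA 1.82, STAR and mm9 appear in the submitters' processing notes, but exon positions in the files are mm10. For small pre-B control 3 the file header has the number of small pre-B control 2 instead of its title number; the title was followed.

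Of 23420 genes, 14161 passed edgeR's filterByExpr (count of at least 10, total of at least 15), all 10 natural killer genes included. A mean per group was fitted to all 10 libraries with edgeR 4.0.16 in R 4.3.3 (TMM, robust quasi-likelihood), and p-values were adjusted over all genes of a comparison. The SE is the size of the log2 fold change over the root of F. DESeq2 1.42.0, limma-voom (limma 3.58.1), other scalings and filters, the compared groups alone, the title or header numbers as a block, the libraries with low Xist alone, and leaving out each library were tried, and the fits were tested on simulated data. Genes, lists and motifs were chosen with earlier results of these data known. All 10 genes are named; of the wider list in the KO comparisons, those past the threshold or, with none, the 4 with the smallest p. Tyrobp, Slamf7, Runx3, Xist, Cd3e, Cd8b1 and genes named by relative level were chosen after their values were seen.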

Additional observations from a re-analysis of the deposited data

How the results depend on the processing

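With 2 or 3 libraries per group, the counts of natural killer genes past the threshold moved with single libraries. The share of all tested genes past it is not given for fits with a library left out. Without that share, the counts do not show whether these 10 changed apart from all genes. When each library was left out in turn, the number past the threshold was 0 to 1 for Mta2 KO in small pre-B cells, 0 in pro-B cells, 0 for the difference, 0 to 10 for small pre-B over pro-B in Mta2 KO and 6 to 10 in controls. A pro-B library left alone in its group took its spread from the remaining groups, as an assumption. For the cell types in Mta2 KO the number was 2 with no count filter and 10 with the compared groups alone, and 0 over the 8 libraries with low Xist, which leave 1 small pre-B KO library; the cause was not tested. With the other 9 genes as a covariate 1 gene, Ncr1, passed in small pre-B cells. No estimate between cell types changed sign under an alternative, and the scalings moved the median of all genes by less than 0.1. Signs changed in the KO comparisons, where none of the estimates concerned had passed. Leaving out a library gave log2 fold changes in pro-B cells of -0.55 to 0.22 for Klrb1c, -0.65 to 0.17 for Klrk1, -0.39 to 0.17 for Gzma, -0.17 to 0.49 for Gzmb, -0.46 to 0.35 for Prf1, -0.24 to 0.14 for Nkg7, -0.43 to 0.38 for Eomes and -0.67 to 0.12 for Tbx21, in small pre-B cells of -1.31 to 0.23 for Ncr1, -0.077 to 1.06 for Gzma and -0.18 to 0.86 for Prf1, and for the difference of -0.35 to 1.20 for Ncr1 and -0.18 to 0.86 for Prf1. For Prf1 in pro-B cells, main value -9.27e-06, DESeq2 size factors gave 0.00719, the 1 CPM filter 0.00613, DESeq2 0.0071 and the compared groups alone 0.00166. Limma-voom gave -0.0234 for Eomes in pro-B cells and 0.11 for Ncr1 in small pre-B cells. Over the libraries with low Xist Prf1 was at 0.000676 in pro-B cells, -0.0517 in small pre-B cells and -0.0524 for the difference, and Ncr1 at -0.76 for the difference. The covariate gave 0.000684 for Klrb1c, 0.12 for Gzma, 0.13 for Prf1 and 0.20 for Nkg7 in pro-B cells, -0.25 for Gzma and -0.29 for Prf1 in small pre-B cells, and -0.75 for Ncr1, -0.37 for Gzma, -0.42 for Prf1 and -0.00184 for Nkg7 for the difference. With the title number as a replicate block 0 of the 10 genes passed in either KO comparison, Eomes was at -0.0238 in pro-B cells, and no other estimate changed sign; with the header number as a replicate block 0 passed likewise and Eomes was at -0.0239. Same-numbered libraries correlated in their deviations at 0.0147 in pro-B cells and 0.0449 to 0.155 in small pre-B cells. Differently numbered libraries were at -0.0147 in pro-B cells and -0.111 to 0.00175 in small pre-B cells. Deviations from a group mean cancel within the group, so the pro-B values mirror each other by construction. The small pre-B values are tied in the same way, so these correlations cannot decide whether the numbers mark pairs. The main fit did not take the numbers as pairs, and the fits with a replicate block did. Gzmb had 0 counts in small pre-B control 3, the deepest small pre-B library, where 3 counts would be 0.0852 CPM.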
